A study of Mus musculus with 6 samples.

Results

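Transcripts of 4 adult globin genes (Hba-a1, Hba-a2, Hbb-bt and Hbb-b2), of the heme synthesis gene Alas2 and of the anion exchanger gene Slc4a1 were measured in mouse liver. The genes were named as a set with earlier results of these data known. A non-control probe counted as one of them where its accession on the array maps to that symbol in RefSeq, a rule that uses no measured value. Each gene had 1 probe, printed as 1 spot on every array, so that 6 of 55681 probes were concerned. All 6 passed the filter on dim probes and stand among the 20645 features that were tested, with 1 probe kept per gene.

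The livers came from male Apoe-deficient mice on the C57BL/6J background. All of these mice lacked apolipoprotein E, a ligand for the clearance of plasma lipoproteins, so no group with a working Apoe gene was compared. For 11 weeks, 9 control mice ate a purified Western diet with 0.15% cholesterol and 20% palm oil, and 10 mice ate that diet with 1% squalene added, which the labels equate to 1 g per kg of mouse. Squalene is a hydrocarbon intermediate on the route to cholesterol. RNA was combined into 4 pools per diet, each from 2 or 3 animals, and every array compared 1 squalene pool with 1 Western pool in opposite dyes. The sources used here do not say which animals entered which pool, or whether the livers were flushed of blood.

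The 6 arrays make 4 pool pairs. Pairs 1 and 4 had the squalene pool in Cy5 (red), and pairs 2 and 3 had it in Cy3 (green). Pairs 1 and 2 were each hybridised on both slides, and their repeat arrays were averaged. The replicate is the pool pair (n = 4). The main fit removes the mean difference between the dye orientations, which leaves 2 residual degrees of freedom. Its p-values thus describe the spread between pairs of the same orientation and not the spread over all 4 pairs. Western pools 1 to 4 were paired with squalene pools 5 to 8 in that order. A log2 ratio below 0 means a lower signal in the squalene pool than in its Western partner.

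Hemoglobin is assembled from alpha chains, encoded by Hba-a1 and Hba-a2, and beta chains, encoded at the Hbb locus, each holding a heme group. Developing red cells make these chains, and young red cells in blood still carry globin mRNA after losing the nucleus. Alas2 encodes the erythroid form of 5-aminolevulinate synthase, which starts heme synthesis in these cells, and Slc4a1 encodes band 3, the chloride and bicarbonate exchanger that anchors the red cell membrane to its skeleton. The fetal liver is a site of red cell formation, whereas the adult liver is mainly perfused by circulating red cells. In bulk RNA of this kind, fewer cells of a type and less RNA per cell cannot be told apart.

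The start regions of these genes are shown because the globins and Alas2 are all read out in red cell precursors, and the results below set the globins against Alas2. RefSeq (GRCm38.p6) gave a start region for 4 of the 6 genes, and none is shown for Hbb-b2 and Slc4a1. The 250 bases before the start of Hba-a1 lie at chr11:32283422-32283671 on the plus strand, those of Hbb-bt at chr7:103813924-103814173 on the minus strand, and those of Alas2 at chrX:150547167-150547416 on the plus strand. Each is written 5′ to 3′ along its gene. Capitals mark 4 short motifs searched on both strands, namely the GATA factor core (GATAAG), the CACCC box, the CCAAT box and the TATA box letters (ATATAA).
Hba-a1: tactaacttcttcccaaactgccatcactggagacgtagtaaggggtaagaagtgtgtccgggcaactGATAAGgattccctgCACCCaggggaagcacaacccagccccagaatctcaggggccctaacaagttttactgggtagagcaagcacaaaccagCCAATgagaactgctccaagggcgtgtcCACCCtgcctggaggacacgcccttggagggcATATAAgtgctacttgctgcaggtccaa
Hbb-bt: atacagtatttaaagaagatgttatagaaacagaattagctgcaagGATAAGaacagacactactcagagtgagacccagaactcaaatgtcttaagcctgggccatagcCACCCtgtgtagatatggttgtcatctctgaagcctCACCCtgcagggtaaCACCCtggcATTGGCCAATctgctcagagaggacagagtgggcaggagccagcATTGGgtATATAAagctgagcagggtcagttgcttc
Alas2: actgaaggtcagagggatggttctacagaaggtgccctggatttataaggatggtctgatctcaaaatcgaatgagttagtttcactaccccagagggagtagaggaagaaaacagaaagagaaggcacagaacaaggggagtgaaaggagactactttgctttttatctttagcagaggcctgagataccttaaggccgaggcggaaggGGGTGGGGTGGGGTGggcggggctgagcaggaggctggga

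Hba-a2, whose 250 bases lie at chr11:32296242-32296491, is not printed because its start region repeats that of Hba-a1. Over the full RefSeq windows, which run past the start, the sequences were identical at 297 of 297 aligned bases once shifted by 3 bases. The Hba-a1 window held 1 GATA core, 2 CACCC boxes, 1 CCAAT box and 1 TATA match. The Hbb-bt window held 1 GATA core, 3 CACCC boxes, 3 CCAAT boxes and 1 TATA match, and a pair of its CCAAT boxes lie side by side on opposite strands. In the Alas2 window, 3 CACCC boxes were found on the opposite strand, where they read GGGTG, and none of the other 3 motifs. Among 32851 promoters of the same length, 6.55% held a GATA core, 52% a CACCC box, 33.8% a CCAAT box and 9.1% the TATA letters. A match is a description of letters and not a bound site.

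Of the 62976 spots on an array, 3671 held controls, and between 48.67% and 54.16% of spots stood above background in a channel. No spot was saturated on any array. The repeat arrays of pairs 1 and 2 correlated at r = 0.847 and r = 0.879 across features, which are not independent replicates. Across all 20645 features the median SE of the squalene effect was 0.07. After Benjamini-Hochberg adjustment of the limma p-values, 0 features stood under 0.05, and 510 features (2.47%) had an unadjusted p under 0.05, against 1032.25 that chance alone would give. The liver was marked by Alb (albumin), with a mean log2 intensity of 17.84. The probe for Apoe gave 11.59, and it is not known here whether that probe lies in the disrupted part of the gene, so it does not check the genotype.

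All 4 globin transcripts were lower on average in the squalene pools, at 68.7% to 71.6% of the Western level, and none of these differences passed the adjusted test. The ratios were below 0 in pairs 2 and 3, with pair 3 the largest in size, while those of pairs 1 and 4 lay near 0 or above it. That split follows the dye orientation, so it does not show in which pairs the diets differed. Alas2 and Slc4a1 showed no such mean difference, with mean log2 ratios of -0.05 and -0.02. By the unadjusted limma p, 4 of these 6 genes were below 0.05 and lower with squalene, beside 293 of 20645 features (1.42%). The globin mRNAs share cells, and their sequences are closely related, so they do not count as independent readings of a difference.

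Of the alpha chain genes, Hba-a1 read log2 intensities of 15.02, 15.04, 15.74 and 14.64 in Western pools 1 to 4. In squalene pools 5 to 8 it read 15.02, 14.31, 14.13 and 14.83. Western pool 3 was the highest of all and squalene pools 6 and 7 the lowest, and the diets overlapped, since Western pool 4 lay below squalene pools 5 and 8. The log2 ratios of pairs 1 to 4 were -8.6e-05, -0.73, -1.60 and 0.19. Pair 1 thus sat at 0 and only pair 4 was above it. Their mean was -0.54 ± 0.81 (SD, n = 4), with an SE of 0.15 in a fit that removes the mean dye difference and a 95% interval of -0.92 to -0.15. In limma the unadjusted p was 0.0158 and the adjusted p, after Benjamini-Hochberg, was 0.9999.

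Hba-a2, the other alpha chain gene, was the brightest of the 6 and brighter than 99.4% of the features. Its log2 intensities were 16.40, 16.74, 17.36 and 16.03 in Western pools 1 to 4, and 16.81, 15.74, 15.44 and 16.54 in squalene pools 5 to 8. Western pool 3 was again highest and squalene pools 6 and 7 lowest. The diets overlapped across dyes, and also within Cy5, where squalene pool 5 lay above Western pool 2. The ratios of pairs 1 to 4 were 0.41, -1.0, -1.91 and 0.51, the widest spread of the 4 globins. The squalene signal was thus above the Western signal in pairs 1 and 4 and below it in pairs 2 and 3. These ratios still hold the difference between dye orientations that the fit removes, so their signs do not give the direction of the diet. The mean was -0.50 ± 1.17 (SD, n = 4; SE 0.15), with a limma p of 0.0230 unadjusted and 0.9999 after Benjamini-Hochberg adjustment.

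Of the beta chain genes, Hbb-bt is one of the adult genes of the C57BL/6 haplotype. Its log2 intensities were 13.49, 13.45, 14.39 and 13.17 in Western pools 1 to 4, and 13.44, 12.82, 12.76 and 13.31 in squalene pools 5 to 8. Pool 3 was the highest and pools 6 and 7 were the lowest, as for the alpha chains. The diets overlapped across dyes but not within either dye, though Cy5 was close to a tie. Pairs 1 to 4 gave ratios of -0.05, -0.63, -1.64 and 0.15. The mean ratio was -0.54 ± 0.80 (SD, n = 4; SE 0.17), with a limma p of 0.0238 unadjusted and 0.9999 after Benjamini-Hochberg adjustment.

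Hbb-b2 names an adult beta chain gene of the other common mouse haplotype, so in this strain its probe may read the related genes of the locus. Its log2 intensities were 11.56, 11.54, 12.56 and 11.36 in the Western pools and 11.69, 10.99, 11.01 and 11.42 in the squalene pools. Western pool 3 stood apart from the other Western pools, which lay within the range of the squalene pools. The ratios of pairs 1 to 4 were 0.13, -0.55, -1.56 and 0.05. The mean was -0.48 ± 0.78 (SD, n = 4; SE 0.17), with a limma p of 0.0342 unadjusted and 0.9999 after Benjamini-Hochberg adjustment. Hbb-bs, the strain's other adult beta chain gene and not one of the 6, gave 0.17, -0.45, -1.72 and 0.13, with a mean of -0.47 ± 0.88 (SD, n = 4) and a limma p of 0.0727 unadjusted.

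Alas2 differed from the globins in its pattern over pools. It read log2 intensities of 12.54, 12.67, 12.40 and 12.50 in Western pools 1 to 4, and 12.19, 12.75, 12.65 and 12.29 in squalene pools 5 to 8. Read across both dyes, its highest and its lowest pool were both squalene pools. On that scale Western pool 3, highest for every globin, was the lowest Western pool. With each dye centred on its own mean, Alas2 was highest in Western pool 2 (0.28) and lowest in squalene pool 5 (-0.20). Western pool 3 (0.0086) then lay above Western pools 1 (-0.07) and 4 (-0.11). The rank of pool 3 as the lowest Western pool for Alas2 thus depended on comparing pools across dyes. The ratios of pairs 1 to 4 were -0.34, 0.08, 0.25 and -0.21, with pairs 2 and 3 above pairs 1 and 4, an order lost with median centring in place of loess (0.15, -0.44, 0.10 and 0.02). The mean was -0.05 ± 0.27 (SD, n = 4; SE 0.06), with a 95% interval of -0.22 to 0.11 and a limma p of 0.428 unadjusted and 0.9999 after Benjamini-Hochberg adjustment.

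Slc4a1 was close to the local background and brighter than only 14.0% of the features. Its log2 intensities ran from 6.52 to 6.66 in the Western pools and from 6.40 to 6.67 in the squalene pools. The Western range lay inside the squalene range. The ratios of pairs 1 to 4 were 0.02, 0.15, -0.24 and -0.0026, and their mean was -0.02 ± 0.16 (SD, n = 4; SE 0.08). The 95% interval was -0.23 to 0.19, and the limma p was 0.805 unadjusted and 0.9999 after Benjamini-Hochberg adjustment. Its signal was 1.21 to 2.63 times the local background over the 12 channel readings, where that of Hba-a1 was 356 to 919 times, so a small difference in Slc4a1 was not detectable.

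**Figure D1:**
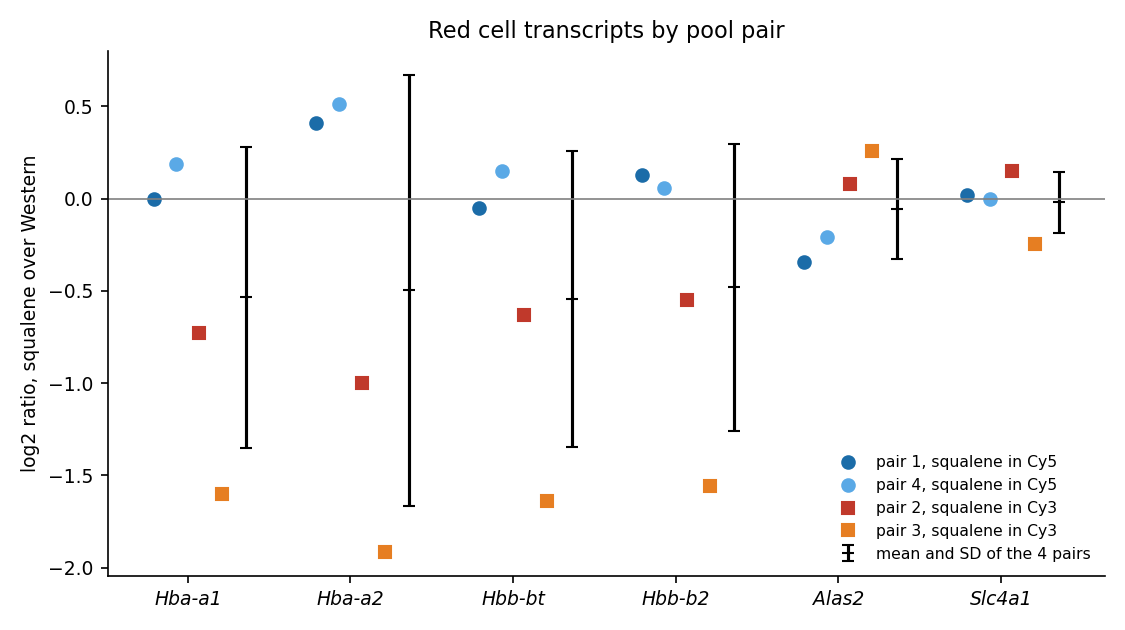
Log2 ratio of squalene over Western for each gene in each of the 4 pool pairs (circles, squalene in Cy5; squares, squalene in Cy3), with the mean and SD of the pairs as a bar. The globins lie between -0.55 and -1.91 in pairs 2 and 3 and between -0.05 and 0.51 in pairs 1 and 4, while Alas2 runs the other way (not so with median centring) and Slc4a1 stays near 0.

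Pair 3 gave the largest difference between 2 pools. The Western signal was 3.04 times the squalene signal for Hba-a1, 3.77 times for Hba-a2, 3.11 times for Hbb-bt and 2.94 times for Hbb-b2. In pair 2 these figures were 1.66, 2.00, 1.55 and 1.46. A log2 ratio of -1 or lower in pair 3 was found for all 4 globins and for 0.518% of the 20645 features. Pair 3 was the lowest of the 4 pairs for the globins and for Slc4a1, beside 6002 features (29.1%). The mean ratio of the globin closest to 0, Hbb-b2, was reached or passed by 27 features (0.131%), the globins included.

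The repeat arrays of pairs 1 and 2 placed the globins at nearly the same ratio on both slides. In pair 2, Hba-a1 read -0.79 on slide 1 and -0.67 on slide 2, Hba-a2 -1.05 and -0.95, Hbb-bt -0.67 and -0.59, and Hbb-b2 -0.58 and -0.53. In pair 1 the same genes read -0.10 and 0.10, 0.42 and 0.40, -0.05 and -0.05, and 0.17 and 0.09. Each globin thus differed far less between slides than between pairs 1 and 2. Alas2 read -0.40 and -0.29 in pair 1 and 0.05 and 0.11 in pair 2, so its smaller split also held on both slides. Slc4a1 read -0.03 and 0.06 in pair 1 and -0.01 and 0.31 in pair 2, so that in pair 2 its slides differed widely. Pairs 3 and 4 had no repeat array.

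The chains of one kind followed those of the other. Averaged over both alpha chain genes, the ratios of pairs 1 to 4 were 0.20, -0.86, -1.76 and 0.35, and over both beta chain genes 0.04, -0.59, -1.60 and 0.10. The alpha chains minus the beta chains gave 0.17, -0.27, -0.16 and 0.25. These differences are small beside the spread of the globin mean over pairs, which was 0.12, -0.73, -1.68 and 0.23. Within a pair the 4 globins lay within 0.36 to 0.46 of each other.

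The split between pairs coincided with the dye orientation. Pairs 2 and 3 lay below pairs 1 and 4 for all 4 globins, as for 5469 of 20645 features (26.5%). Alas2 had them the other way round, though not with median centring, as did 4609 features (22.3%). Median centring in place of loess widened the split of the globins, with Hba-a2 at 1.06, -1.80, -2.16 and 0.97 in pairs 1 to 4. In the authors' deposited table, centred on the median, it held for the other globins and not for Hbb-b2, which gave -0.02, -0.38, -0.97 and -0.47. The dye intercept of the fit was 0.63 (SE 0.15) for Hba-a1, 0.96 for Hba-a2, 0.59 for Hbb-bt and 0.57 for Hbb-b2, with unadjusted limma p of 0.00842, 0.00153, 0.0173 and 0.0185, and it was -0.22 for Alas2 with an unadjusted limma p of 0.0169. An intercept below 0 at that level was found for 1317 features (6.38%). An intercept above 0 with an unadjusted limma p under 0.05 was found for 1837 features (8.9%), and no intercept passed Benjamini-Hochberg adjustment. Each pool was read in 1 dye only, so a dye effect on these probes and a difference between the pools that share an orientation cannot be told apart.

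Bright probes carried this split more often than others. Of the 115 features at least as bright as Hba-a2, 83 (72.2%) had pairs 2 and 3 below pairs 1 and 4, and of the 3617 at least as bright as Hbb-b2, 1097 (30.3%) did. Alb, brighter than Hba-a2, gave 0.57, -0.25, -0.55 and 0.24. The size of the globin split was less common. The mean of pairs 1 and 4 exceeded that of pairs 2 and 3 by 1.92 for Hba-a2, a gap reached by 2 of those 115 bright features with Hba-a2 itself counted, and by 8 of all 20645. For Hbb-b2 the gap was 1.14, reached by 67 of its 3617 bright features and by 126 of all. The part of brightness in the globin split was not tested.

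Within a dye, pools can be compared without that difference. Of the pools read in Cy5, the mean of the 4 globins, centred on the dye's own mean, was 0.64 in Western pool 3 and -0.17 in Western pool 2, and -0.13 and -0.34 in squalene pools 5 and 8. Of the pools read in Cy3 it was 0.44 and 0.12 in Western pools 1 and 4, and -0.21 and -0.34 in squalene pools 6 and 7. Western pools 1, 3 and 4 thus lay above all squalene pools, and Western pool 2 lay within their range. As a percentage of the dye mean, the Western pools ranged from 88.6% to 156% and the squalene pools from 78.7% to 91.5%, so the Western pools spread more widely.

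Within both dyes, each squalene pool lay below each Western pool for Hba-a1 and Hbb-bt, an order found for 230 of 20645 features (1.11%). In Cy5 this was close to a tie between squalene pool 5 and Western pool 2. They read 15.02 and 15.04 for Hba-a1, and 13.44 and 13.45 for Hbb-bt. Between the repeat arrays of pair 1 the ratio differed by 0.21 for Hba-a1 and by 0.0041 for Hbb-bt. For pair 2, which holds Western pool 2, it differed by 0.12 for Hba-a1 and by 0.083 for Hbb-bt. For Hba-a2 and Hbb-b2 the order failed in Cy5, where squalene pool 5 lay above Western pool 2. No gene of the 6 had all 4 squalene pools below all 4 Western pools on the uncentred scale, which 81 features (0.392%) had.

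**Figure D2:**
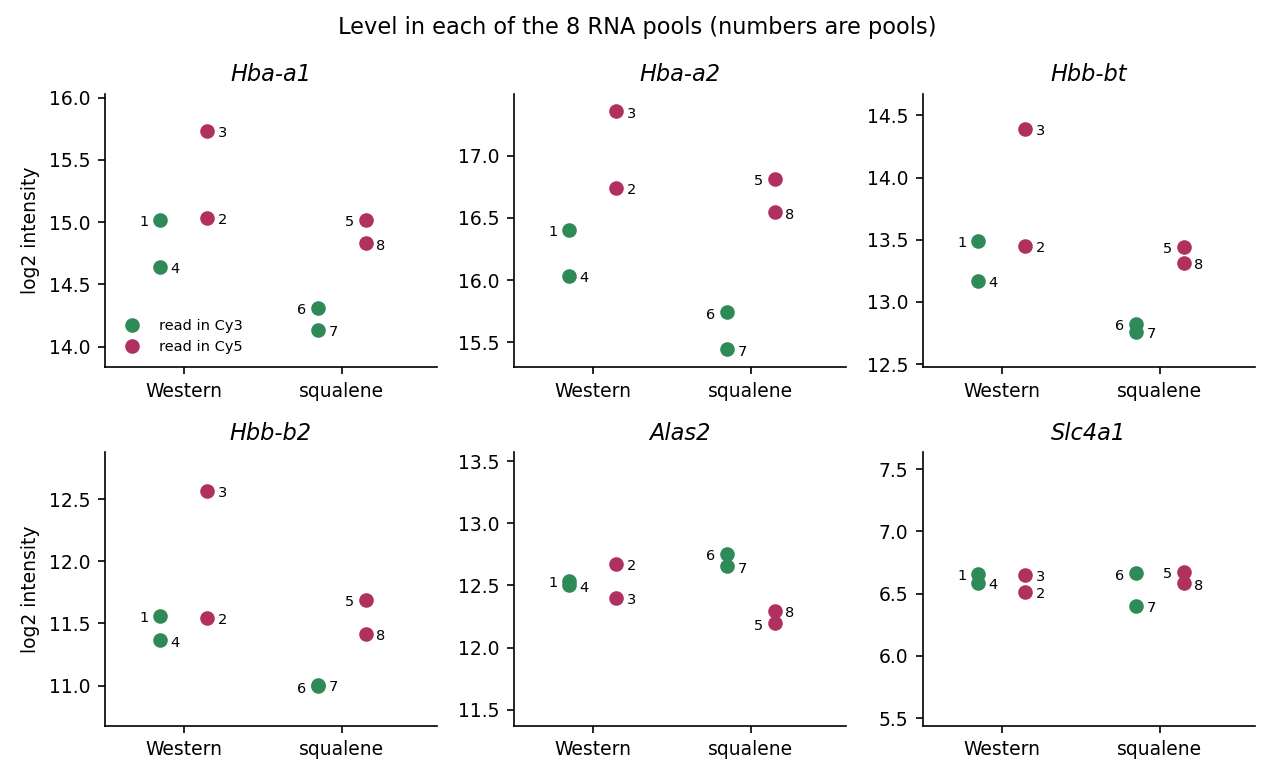
Log2 intensity of each gene in the 8 RNA pools, by diet, with the pool number beside each point and the dye it was read in by colour (green, Cy3; red, Cy5). All panels span the same range in log2 units, and pool 3 is the highest for each globin, whereas Alas2 and Slc4a1 vary little.

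The globins varied together over pools. Over the 8 pools, centred by dye, Pearson's r between any 2 globins was 0.905 to 0.988. With the globin mean, r was -0.19 for Alas2 and 0.51 for Slc4a1. These are descriptions over pools that share arrays and mice of 1 cohort. Alas2 had an SD of 0.15 over these pools and Slc4a1 an SD of 0.09, so neither varied much.

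The size of the globin difference depended on pair 3. Its unadjusted p depended on how the dye was modelled and on whether pairs 1 and 4 were both kept. With pair 3 left out, the mean ratio of Hba-a1 was -0.32, that of Hba-a2 -0.27, that of Hbb-bt -0.29 and that of Hbb-b2 -0.23. With pair 2 left out it was -0.75, -0.73, -0.79 and -0.73. Every globin stayed below 0 with any 1 pair left out. Without pair 1 the unadjusted limma p was 0.0679, 0.0830, 0.0911 and 0.0881, and without pair 4 it was above 0.05 for Hba-a2, Hbb-bt and Hbb-b2. Fitted without a dye intercept, the means were the same with all pairs, and the unadjusted limma p became 0.110, 0.268, 0.102 and 0.130, all above 0.05. In that fit without pair 3, the 4 means, in the same order, were -0.18, -0.03, -0.18 and -0.12. A lower unadjusted p under 0.05 was found without the dye intercept for 136 features (0.659%) and for none of the globins.

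**Figure D3:**
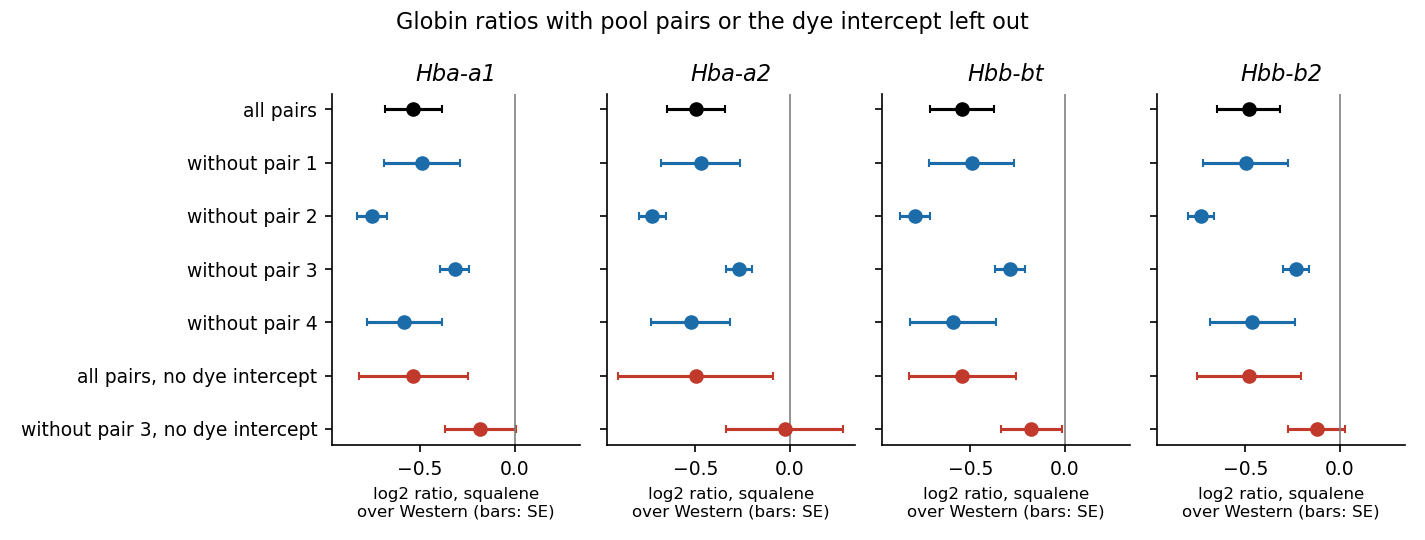
Mean log2 ratio of squalene over Western for each globin, with its SE from the fit as bars, with all 4 pool pairs, with each pair left out in turn (blue), and without the dye intercept (red). All points lie below 0, nearest to it when pair 3 is left out.

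Other globins were mostly below the range that could be measured. Of 11 other globin family genes, 10 had a probe and 2 passed the filter. These were Hbb-bs, given above, and Cygb (cytoglobin, made in stellate cells and not in red cells), at -0.12 ± 0.42 (SD, n = 4). The embryonic genes Hbb-y, Hbb-bh1 and Hba-x, made by the first red cells of the embryo, were not measured above background in enough pairs.

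The wider red cell genes showed no common difference. The lists of heme and iron, membrane, cytosol, regulator and hemoglobin clearance genes could be compared with the globins only as far as they were measured. Of 17 genes of heme synthesis and erythroid iron handling, all 17 were measured, 9 above and 8 below 0, with a median log2 ratio of 0.00. Tfrc, the transferrin receptor that brings iron into red cell precursors, was at 0.14 ± 0.04 (SD, n = 4), above 0 in all 4 pairs, with an unadjusted limma p of 0.0495 that did not survive Benjamini-Hochberg adjustment (0.9999). An unadjusted p under 0.05 with a higher level was found for 217 features (1.05%). Alas1, the form of the Alas2 enzyme made in hepatocytes, was at 0.01 ± 0.17, and Fech, which inserts iron to complete heme, at 0.01 ± 0.15 (SD, n = 4).

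Of 21 genes of the red cell membrane and its skeleton, 10 were measured, 3 above and 7 below 0, with a median of -0.02. Sptb (an erythroid spectrin), Ank1 (the ankyrin that holds band 3) and Epb42 were among those that did not pass the filter. Of 14 erythroid regulators, 10 were measured, 4 above and 6 below 0, with a median of -0.03. Gata1, the master erythroid transcription factor, did not pass. Klf1, which activates the beta globin gene, was at -0.02 ± 0.34 and Epor, the erythropoietin receptor, at -0.03 ± 0.17 (SD, n = 4). The probe of Klf1 was dim, with a mean log2 intensity of 6.66 beside 6.60 for Slc4a1, so a small difference in it may have been missed.

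Of 20 genes of the red cell interior, 17 were measured, 6 above and 11 below 0, with a median of -0.01. Car2, a carbonic anhydrase, was at -0.18 ± 0.23 (SD, n = 4), with ratios of 0.05, -0.39, -0.37 and -0.0042 and an unadjusted limma p of 0.0199 (0.9999 after Benjamini-Hochberg adjustment). Bpgm, which sets the oxygen affinity of hemoglobin, was at -0.16 ± 0.17 (SD, n = 4), with an unadjusted limma p of 0.0540. Over all red cell lists without the globins, 56 of 74 genes were measured, 22 above and 34 below 0, with a median of -0.01. Over all features, 10694 were above and 9951 below 0, with a median of 0.00.

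Of 11 genes that take up hemoglobin and heme after red cells break down, 10 were measured, 6 above and 4 below 0, with a median of 0.02. Pairs 2 and 3 lay below pairs 1 and 4 for 4 of these 10, beside 26.5% of all features, and the list's pair means were 0.49, -0.08, -0.34 and -0.05. Hp (haptoglobin, which binds free hemoglobin) gave 0.80, -0.78, -0.90 and 0.60 in pairs 1 to 4, with a mean of -0.07 ± 0.89 (SD, n = 4). Hpx (hemopexin, which binds free heme) gave 0.74, -0.46, -0.55 and 0.12. Ftl1 (ferritin light chain, which stores iron) gave 0.72, -0.45, -0.57 and 0.60, with a mean of 0.07 ± 0.68 (SD, n = 4). Hp, Hpx and Ftl1 are among the bright probes described above. Hmox1, which breaks down heme, was at 0.03 ± 0.50 (SD, n = 4) and gave 0.64, 0.23, -0.40 and -0.37.

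**Figure D4:**
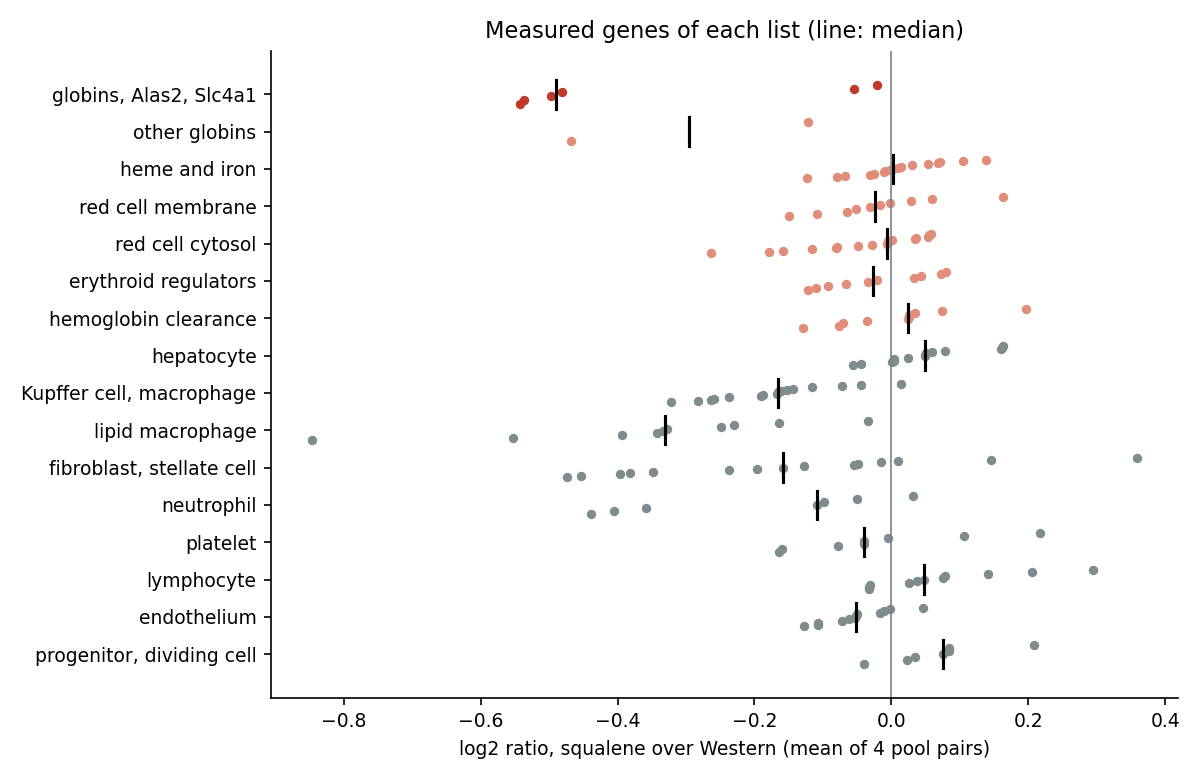
Mean log2 ratio of squalene over Western for each measured gene of the lists (points), with the list's median as a vertical line. The 4 globins stand near -0.5, apart from Alas2, Slc4a1 and the other red cell lists (medians from -0.03 to 0.02, aside from 2 other globins), and the lowest list median outside the globins is that of the lipid macrophage genes, at -0.33.

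Markers of other blood and liver cells were set beside the globins. Of 12 neutrophil genes, 7 were measured, 6 of them below 0, with a median of -0.11 and pair means of 0.14, -0.24, -0.62 and -0.10. Their mean log2 intensity ran from 9.59 to 10.23 over the squalene pools and from 9.97 to 10.21 over the Western pools. S100a8 and S100a9, alarmins of neutrophils, were at -0.40 ± 0.66 and -0.44 ± 0.67 (SD, n = 4). Of 12 platelet genes, 8 were measured, with a median of -0.04 and pair means of 0.14, -0.02, -0.32 and 0.11, and mean intensities of 7.28 to 7.63 with squalene and 7.43 to 7.60 without. Of 14 lymphocyte genes, 11 were measured, 8 of them above 0, with a median of 0.05 and pair means of 0.45, -0.04, -0.18 and 0.06. All 12 endothelial genes were measured, 11 of them below 0, with a median of -0.05 and pair means of 0.12, -0.06, -0.19 and -0.07. Pair 3 was the lowest in each of these 4 lists, as it was for the globins and for 29.1% of all features.

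The lists of resident liver cells differed in their pair patterns. Of 17 genes of Kupffer cells and macrophages, 16 were measured, 15 below 0, with a median of -0.17 and pair means of 0.26, 0.17, -0.59 and -0.52. All 10 lipid macrophage genes were below 0, 6 of them with an unadjusted limma p under 0.05 (1.42% of all features were lower at that p), with a median of -0.33 and pair means of 0.06, -0.70, -0.67 and -0.08. Of 15 fibroblast and stellate cell genes, 12 were below 0, with a median of -0.16 and pair means of 0.21, -0.42, -0.44 and 0.02. The pair means of the lipid macrophage and fibroblast lists shared the globins' split between pairs 2 and 3 and pairs 1 and 4. Those of the neutrophil, platelet, lymphocyte, hemoglobin clearance and red cell interior lists had it as well. The split was found in 7 of 10 lipid macrophage, 10 of 15 fibroblast, 5 of 7 neutrophil and 5 of 8 platelet genes. It was found in 5 of 11 lymphocyte, 4 of 10 clearance and 7 of 17 interior genes, beside 26.5% of all features. The 14 hepatocyte genes had a median of 0.05, with 12 above 0, and pair means of 0.13, -0.12, 0.06 and 0.14. The part of any of these cell types in the globin difference was not tested.

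The genes with the globins' pattern over pools were sought among 659 named genes with an SD of at least 0.3 over the 8 pools. Likeness was Pearson's r with the mean of the 4 globins over the 8 dye-centred pools, as a description. Of these genes, 2 (0.303%) reached an r of 0.9, Slc15a2 (a peptide transporter) at 0.912 and Hbb-bs at 0.903. Plin4 (a lipid droplet coat protein) followed at 0.898, Hmgcs1 (the synthase that makes HMG-CoA for cholesterol) at 0.889 and Zdhhc22 at 0.871. Without pools 3 and 1, those farthest from the median, r was 0.843 for Slc15a2, 0.577 for Hbb-bs, 0.696 for Plin4, 0.796 for Hmgcs1 and 0.463 for Zdhhc22. The likeness of Hbb-bs and Zdhhc22 thus rested in large part on those pools, and that of Plin4 fell as well. Without centring by dye, r was 0.120 for Slc15a2, 0.939 for Hbb-bs, 0.839 for Plin4, 0.510 for Hmgcs1 and 0.934 for Zdhhc22. Cbr3, Paxx, Pdk4 and Gm10319 were also among the 10 nearest, with r from 0.835 down to 0.815. Without pools 3 and 1 they gave 0.598, 0.860, 0.522 and 0.796, so Cbr3 and Pdk4 also rested on those pools.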

How the data were processed

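The deposited scanner output gives, for each dye, the intensity of every spot and of its surroundings. The scanner software was Agilent Feature Extraction, version 10.7.3.1, and the array design used mm9, per the file headers. They also hold processed intensity, log10 ratios of red over green, and marks for control, outlier and above-background spots, as the headers show. In the authors' deposited value table, 99.93% to 99.94% of spots lay within 0.001 of log10 of squalene over Western computed from median signals with no normalisation, and its column medians ran from -0.27 to 0.27. It held a pair of cells too large for a ratio in each column of pair 1, which were left out.

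From the deposited median signals, limma 3.58.1 in R 4.3.3 applied normexp background correction (offset 50) and loess within arrays. Control and outlier spots were left out, repeat arrays were averaged, and log2 ratios were turned to squalene over Western. Probes stood well above background in at least 3 of 4 pairs in 1 diet's channel or more. The brightest probe of a gene was kept, leaving 20645 features. The fit had a squalene effect and a dye intercept, with Benjamini-Hochberg adjustment over all features. Levels are log2 intensity after loess and Aquantile. The script was tested on simulated data. The 6 genes and all lists were chosen with earlier results of these data known. List genes were named for their role in the text or their rank by p, and likeness genes by rank of r, and a few of these genes are not reported here. The precision is limited by 4 pool pairs. Alternatives were other background correction, normalization, filter and dye settings, the deposited table, single slides, and leaving out each pair. No replicate was paired beyond the pool pair on an array.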

Additional observations from a re-analysis of the deposited data

Results flagged for a closer look

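Of 21 groups of 4 pools or pairs examined, 1 held a sample set apart from the others. This was the level of Hbb-b2, an adult beta chain gene, over the 4 Western pools. Western pool 3 read a log2 intensity of 12.56, the next highest 11.56, and the gap made up 0.835 of the group's whole range, above the 95% critical value of Dixon's test. Chance alone sets about 1 group in 20 apart at this level, so 1 among 21 is near what chance gives. Pool 3 was the highest Western pool for the other 3 globins too, at 15.74 for Hba-a1, 17.36 for Hba-a2 and 14.39 for Hbb-bt, and their gaps stayed under the critical value.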

How the results depend on the processing

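Over 13 settings that kept all 4 pairs or used 1 slide, the log2 ratio lay between -0.55 and -0.45 for Hba-a1, -0.52 and -0.31 for Hba-a2, -0.54 and -0.36 for Hbb-bt, and -0.51 and -0.20 for Hbb-b2. Each gene had 1 probe that passed every filter. Settings that changed only the filter, the probe choice or the variance model left its ratio as it was, so they are no separate check of it. With such settings counted, the unadjusted p stayed under 0.05 for each globin in 11 of the 12 settings with a p. It rose above 0.05 in the fit without a dye intercept. With 1 pair left out it was above 0.05 for all 4 without pair 1, and for Hba-a2, Hbb-bt and Hbb-b2 without pair 4. With each pair left out in turn, the ratio ran from -0.75 to -0.32 for Hba-a1, -0.73 to -0.27 for Hba-a2, -0.79 to -0.29 for Hbb-bt, -0.73 to -0.23 for Hbb-b2, -0.098 to -0.010 for Alas2 and -0.12 to 0.077 for Slc4a1.

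In limma with Benjamini-Hochberg adjustment the number of features called for squalene was 0, and it became 2 with median centring in place of loess, 9 with the deposited table and 4 with slide as a term and pool pair as a random block. None of the 6 genes was among those called. The unadjusted count was 203 with median centring, 184 with the deposited table, 936 without the filter, 254 without the dye intercept, 1282 without pair 2 and 833 without pair 3, and, without the dye intercept, 319, 338 and 283 without pairs 2, 3 and 4. The cause of these moves was not tested beyond the fewer samples or more probes that some settings hold.

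Slc4a1, near background, turned to 0.031 on slide 2 alone, to 0.077 without pair 3 and to 0.054 without pair 3 and the dye intercept. Alas2 turned to 0.042 without pair 1 and the dye intercept. The dye intercept turned to 0.12 for Alas2 with median centring, and for Slc4a1 to -0.066 with the deposited table, -0.00092 on slide 2 and -0.070 without pair 3 (from -0.070 to 0.13 with each pair left out). With median centring the dye intercept passed the adjusted test for all 4 globins, at 1.09 for Hba-a1, 1.5 for Hba-a2, 0.97 for Hbb-bt and 0.87 for Hbb-b2, and with the deposited table it did so for Hba-a2 (0.82) and Alas2 (-0.54). The depth of an array is its signal over background, which limits Slc4a1 and the genes left out by the filter.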
